A study of Mus musculus with 9 samples.

Results

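The early growth response genes *Egr1* to *Egr4*, the orphan nuclear receptor genes *Nr4a1* to *Nr4a3* and the genes *Nab1* and *Nab2* were examined in preosteoblasts exposed to low-intensity pulsed ultrasound (LIPUS). All probe sets that the annotation of the array pairs with one of these 9 symbols were taken, which gave 20 of the 45037 probe sets tested, for 9 of 18193 named genes. None of the 20 carries a second symbol, and 17 of them have a mean signal above the median of all probe sets. The 3 dimmer ones belong to *Nr4a2*, *Nr4a3* and *Nab1*.

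The cells were MC3T3-E1, an immortal preosteoblast line of fibroblast-like shape from the skull cap of newborn C57BL/6 mice, so that no animal-to-animal variation enters. All 9 cultures had been kept for 14 days with ascorbic acid and β-glycerophosphate, trypsinised and seeded 24 h before treatment. Control cells were mock-treated. LIPUS 6 h and LIPUS 24 h cells received ultrasound of 1.5 MHz at 30 mW/cm2 for 20 min through the dish bottom and were cultured for a further 6 h or 24 h, with 3 arrays in each group. How long the control cells were cultured after the mock treatment is not stated in the sources used here, so LIPUS and time in culture cannot be told apart. Values are log2 signals, on which a difference of 1 is a doubling, and each LIPUS array was set against the control array of the same number, called its experiment. P-values therefore measure the spread between these 3 experiments.

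EGR proteins are zinc-finger transcription factors of GC-rich promoter sites. NR4A proteins are nuclear receptors that work without a known hormone and bind DNA alone or with a retinoid X receptor. Both families belong to the immediate early genes, whose transcription starts within minutes of growth factors, hormones or mechanical load without new protein being made and usually falls back within hours. In osteoblasts, parathyroid hormone is a known inducer of NR4A genes through cyclic AMP. NAB1 and NAB2 bind EGR1, EGR2 and EGR3 and restrain them, and *Nab2* is itself an EGR target.

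Of the 20 probe sets, 2 differed at 24 h from the control at an adjusted p under 0.05 in limma, 1 of *Egr3* and the only one of *Nr4a1*, and both were higher. Across all probe sets 2.73% passed that test at 24 h and 1.8% passed as higher. At 6 h none of the 20 passed, and neither did any other probe set (0.0%), while 2 of the 20 and 1575 of all reached an unadjusted p under 0.05 and the methods' t-test also passed none after adjustment. Without experiment 3, 38 probe sets passed at 6 h, none of them among the 20. Between 6 h and 24 h, 3 passed, with *Egr3* and *Nr4a1* higher and *Egr1* lower at 24 h, against 2.02% of all probe sets, 1.14% as higher and 0.879% as lower. The median log2 fold change of the 20 at 24 h was -0.0015, beside 0.0012 over all probe sets. The study picked *Egr3* and *Nr4a1* out on these same arrays, so their rise at 24 h here is no independent evidence. By real-time PCR the study also reported *Egr3* as significantly upregulated, while *Nr4a1* was not among the genes it tested that way. Because each culture was measured as a whole, more RNA per cell and more cells with the RNA cannot be told apart.

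The direction of each probe set was also followed through the 3 experiments. At 24 h, 4 probe sets were higher than the control in every experiment and 2 were lower in every experiment, where 10.3% and 6.84% of all probe sets did so. At 6 h the counts were 3 higher and 1 lower, where 6.48% and 4.24% of all did so. The study selected probe sets by a ratio to the control of at least 1.5 in each experiment. Computed here from the deposited RMA signals, such ratios were reached at 24 h by 1 probe set of the 20, that of *Egr3*, and by 0.0955% of all probe sets. *Nr4a1*, which the list of the study also holds, lay just outside on these signals, with ratios of 1.46, 1.60 and 1.82. The study analysed its arrays in GeneSpring GX, and the signals that its ratios rest on are not stated. For *Nr4a1* at 24 h it lists a higher mean ratio with a smaller SD than the 1.63 (SD 0.18) computed here. Its ratios therefore differ from those of the signals used here.

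**Figure D1:**
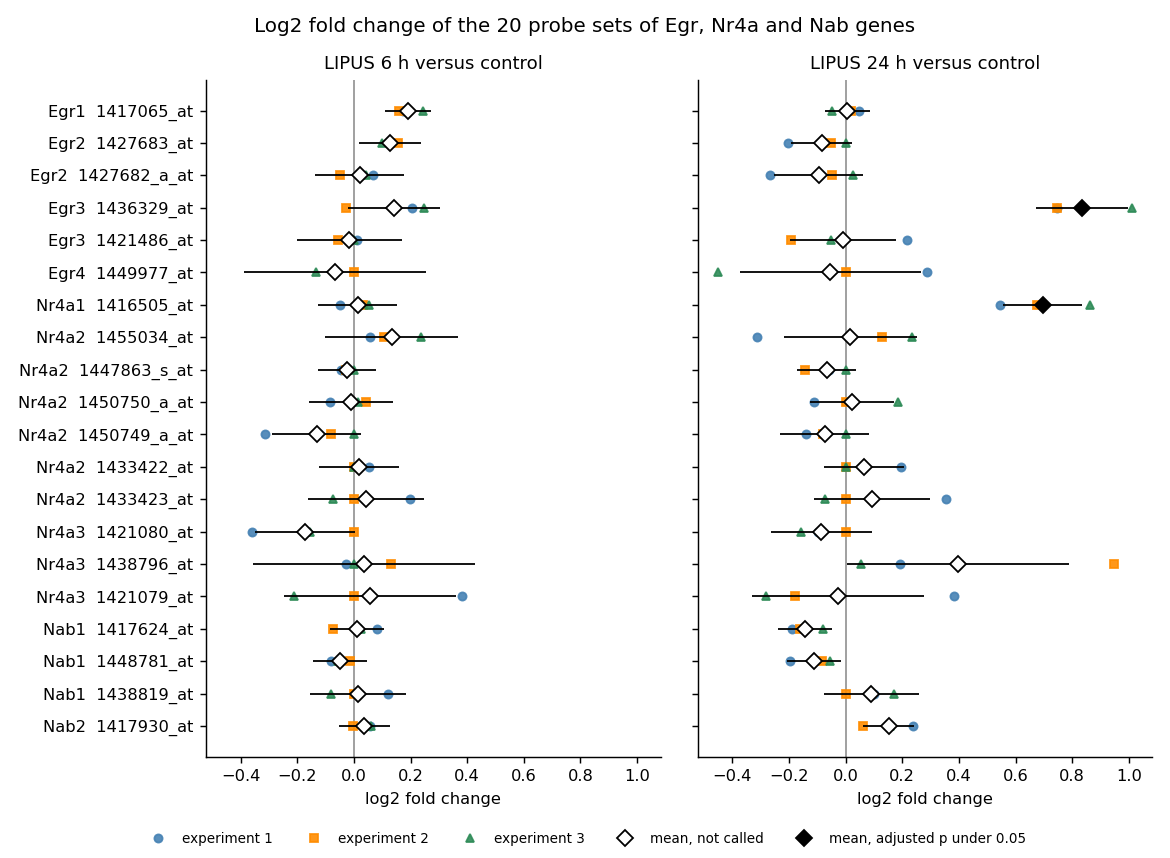
Log2 fold change against the control of the same experiment for each of the 20 probe sets, at 6 h on the left and 24 h on the right. Coloured symbols are the 3 experiments, diamonds the mean from limma and bars its 95% confidence interval, and only the filled diamonds of *Egr3* 1436329_at (0.83) and *Nr4a1* (0.70) at 24 h have an adjusted p under 0.05.

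*Egr3* codes for an EGR factor best known from muscle spindles, nerve and lymphocytes. Its probe set 1436329_at read 8.31, 8.90 and 8.03 in control cells of experiments 1, 2 and 3. At 6 h after LIPUS it read 8.52, 8.87 and 8.27, and at 24 h 9.06, 9.65 and 9.04. All 24 h values lay above all control and all 6 h values, while those of 6 h and control overlapped, and experiment 2 was the highest under each condition. The rise at 24 h was 0.75, 0.75 and 1.01 in the 3 experiments, with a mean of 0.83 (SE 0.07, adjusted p = 0.00202), which is 1.78-fold. At 6 h the difference was 0.14 (SE 0.07, adjusted p = 0.959), higher in 2 of 3 experiments, and 24 h exceeded 6 h by 0.69 (SE 0.07, adjusted p = 0.00483).

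The second probe set of the gene, 1421486_at, did not follow. It read 6.40, 6.94 and 6.39 in control cells, 6.41, 6.89 and 6.39 at 6 h and 6.61, 6.75 and 6.33 at 24 h, so that the groups overlapped throughout. Its log2 fold change at 24 h was -0.01, with a 95% confidence interval of -0.20 to 0.18 (adjusted p = 0.972). In the same experiments the fold change of 1436329_at was larger by 0.53, 0.94 and 1.06, a mean difference of 0.84 ± 0.28 (SD, n = 3). A two-sided exact permutation test by sign changes gave p = 0.25 for this difference, which is the smallest p that 3 experiments allow. *Egr3* therefore rose by 1 of its 2 probe sets, and which transcripts each of them reads was not analysed here.

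*Nr4a1*, which codes for the receptor also called NUR77, has 1 probe set. It read 7.76, 7.86 and 7.36 in control cells and 7.71, 7.90 and 7.41 at 6 h, and these groups overlapped. At 24 h it read 8.31, 8.54 and 8.22, above every control and every 6 h value. The rise over the control was 0.55, 0.68 and 0.86, with a mean of 0.70 (SE 0.06, adjusted p = 0.00239), which is 1.62-fold. The difference at 6 h was 0.01, with a 95% confidence interval of -0.13 to 0.15 (adjusted p = 0.986), and 24 h exceeded 6 h by 0.68 (SE 0.06, adjusted p = 0.00304).

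The calls of *Egr3* and *Nr4a1* at 24 h need the pairing by experiment and experiments 1 and 2. With no block for the experiment their adjusted p was 1.0 each, and in a fit of control and 24 h arrays alone it was 0.112 and 0.141. Without experiment 1 it was 0.288 for *Egr3* and 0.237 for *Nr4a1*, without experiment 2 it was 0.0501 and 0.0965, and without the control array of experiment 1 it was 0.0555 and 0.0369. The fold changes lay between 0.75 and 0.90 for *Egr3* and between 0.61 and 0.77 for *Nr4a1* under all of the 21 settings. Many settings, such as those that change only the block, the trend, the test or the 6 h arrays, cannot move the fold change.

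**Figure D2:**
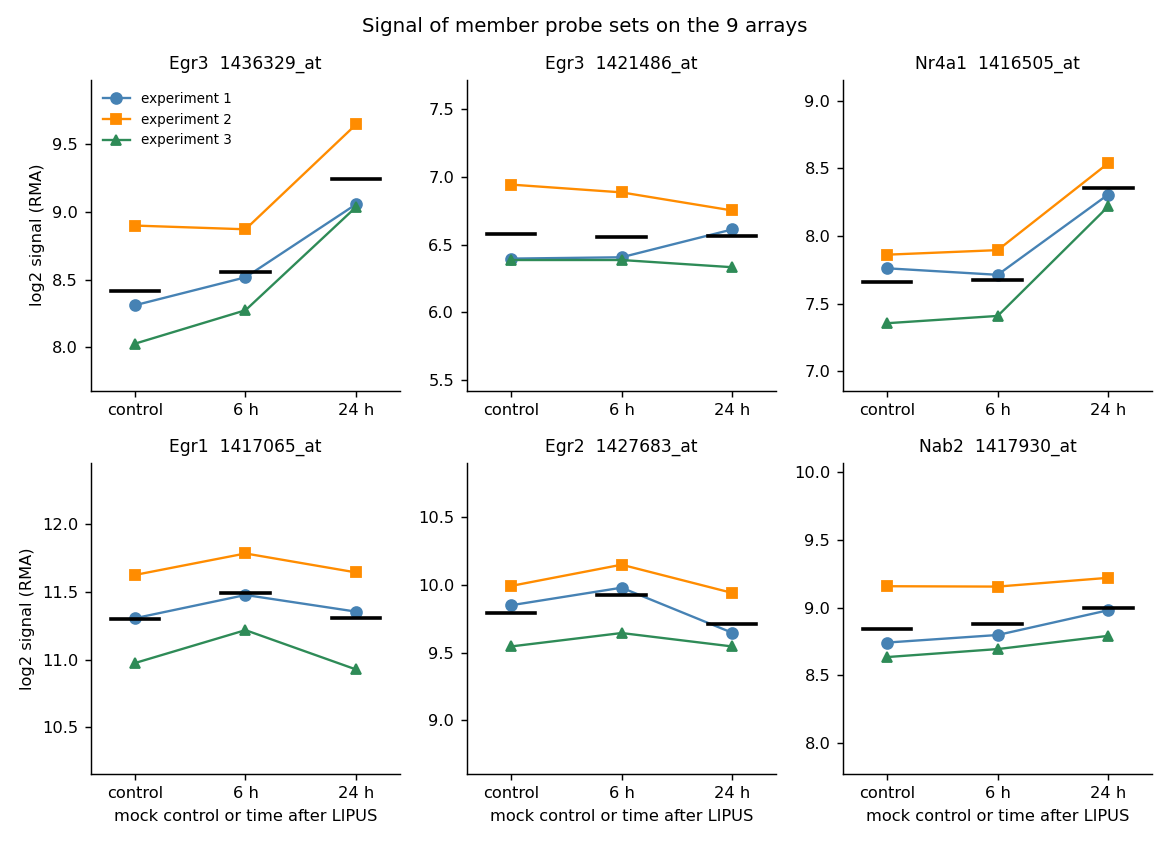
Log2 signal of 6 probe sets on the 9 arrays, by mock control and time after LIPUS, with each experiment as a line and the mean of each group as a black bar. Each panel spans the same range of the log2 scale, and the 24 h values of *Egr3* 1436329_at (9.04 to 9.65) and *Nr4a1* (8.22 to 8.54) lie above those of control and 6 h, which those of *Egr3* 1421486_at do not.

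*Egr1*, the family member most widely used as a marker of immediate early induction, had its high point at 6 h. Its 1 probe set read 11.31, 11.63 and 10.97 in control cells, 11.48, 11.79 and 11.22 at 6 h and 11.35, 11.64 and 10.93 at 24 h. The groups overlapped across experiments, and within each experiment the 6 h value was the highest. The difference at 6 h was 0.17, 0.16 and 0.24, with a mean of 0.19 (SE 0.03, adjusted p = 0.959), which did not pass the test over all probe sets. At 24 h the level was 0.01 above the control, with a 95% confidence interval of -0.07 to 0.09 (adjusted p = 0.951). From 6 h to 24 h *Egr1* fell by 0.18 (SE 0.03, adjusted p = 0.0479), which is a ratio of 0.88 and was lower in 3 of 3 experiments. That call lies at the threshold. It was lost without experiment 3 (adjusted p = 0.0527), without experiment 2 (0.4) and without experiment 1 (0.674), and when any 1 array was left out the adjusted p was 0.052 to 0.238. It was also lost after quantile normalization (0.0736), without the intensity trend (0.204) and with the arrays of both groups only (0.317).

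*Egr2*, known for its part in myelination and the hindbrain and also expressed in bone cells, has 2 probe sets. In control cells 1427683_at read 9.85, 9.99 and 9.54, at 6 h 9.98, 10.15 and 9.64 and at 24 h 9.65, 9.94 and 9.54. It was highest at 6 h in each experiment, as *Egr1* was, with a mean difference of 0.13 from the control (SE 0.05, adjusted p = 0.959). From 6 h to 24 h the difference was -0.21 (SE 0.05, adjusted p = 0.086), and it passed the test after quantile normalization (adjusted p = 0.0281), among probe sets above the median signal (0.0449) without experiment 3 (0.0238) and without its 24 h array (0.0284). The other probe set, 1427682_a_at, was highest at 6 h only in experiments 1 and 3, and its differences were 0.02 at 6 h and -0.10 at 24 h (adjusted p = 0.979 and 0.626). Against the control at 24 h neither passed, and the lowest end of their confidence intervals was -0.25.

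*Egr4*, a family member that lacks the NAB binding region, was dim and gave 5.46, 5.55 and 5.28 in control cells, 5.39, 5.55 and 5.15 at 6 h and 5.74, 5.55 and 4.83 at 24 h. At 24 h it was higher in experiment 1, equal in experiment 2 and lower in experiment 3. The log2 fold change at 24 h was -0.05, with a 95% confidence interval of -0.37 to 0.27 (adjusted p = 0.892). A change within these bounds is not excluded. The interval is unadjusted and gives no limit of detection, so a larger change could also fail the test.

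Of the NR4A family, the promoters of the 3 genes are shown because the genes share a feature there while only *Nr4a1* was called at 24 h. The CREB factors, which carry the cyclic AMP signal, bind the cyclic AMP response element (CRE), whose half-site is TGACG, or CGTCA on the other strand. Below are the 250 bases before the annotated start site from RefSeq on GRCm38.p6, written 5′ to 3′ along the strand of the gene, with the half-sites of either strand in capitals. *Nr4a1* lies on the plus strand at chr15:101266596-101266845, *Nr4a2* on the minus strand at chr2:57124004-57124253 and *Nr4a3* on the plus strand at chr4:48045055-48045304.
Nr4a1: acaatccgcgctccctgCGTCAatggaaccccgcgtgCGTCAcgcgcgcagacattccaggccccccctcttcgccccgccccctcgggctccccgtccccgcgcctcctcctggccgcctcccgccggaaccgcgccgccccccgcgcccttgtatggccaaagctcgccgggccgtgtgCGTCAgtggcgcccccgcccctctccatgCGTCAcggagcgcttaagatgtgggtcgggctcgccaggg
Nr4a2: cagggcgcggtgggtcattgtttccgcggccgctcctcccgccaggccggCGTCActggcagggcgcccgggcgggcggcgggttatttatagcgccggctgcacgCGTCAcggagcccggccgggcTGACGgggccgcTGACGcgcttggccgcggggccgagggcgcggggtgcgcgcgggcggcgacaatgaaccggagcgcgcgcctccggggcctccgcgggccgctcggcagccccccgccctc
Nr4a3: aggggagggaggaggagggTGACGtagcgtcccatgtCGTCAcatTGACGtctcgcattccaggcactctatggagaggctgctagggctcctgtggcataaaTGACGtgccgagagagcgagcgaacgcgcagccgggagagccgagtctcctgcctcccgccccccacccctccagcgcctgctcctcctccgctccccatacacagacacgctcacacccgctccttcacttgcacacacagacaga
Each of the 3 holds 4 half-sites. Among all 32817 promoter windows of 300 bases, which run from 250 bases before to 50 after the start, 20.8% hold at least 1 half-site and 0.232% hold 4 or more. In *Nr4a1* all 4 are CGTCA and all lie within the longer form TGCGTCA, or TGACGCA on the other strand, which 2.11% of windows hold at least once and which no other window holds 3 or more times. *Nr4a2* and *Nr4a3* do not have this longer form in their windows. The half-sites of *Nr4a1* start 233, 213, 69 and 40 bases before the start site, those of *Nr4a2* 200, 144, 123 and 111 bases and those of *Nr4a3* 231, 213, 205 and 147 bases before it. These are matches of letters only, and no binding was measured.

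**Figure D3:**
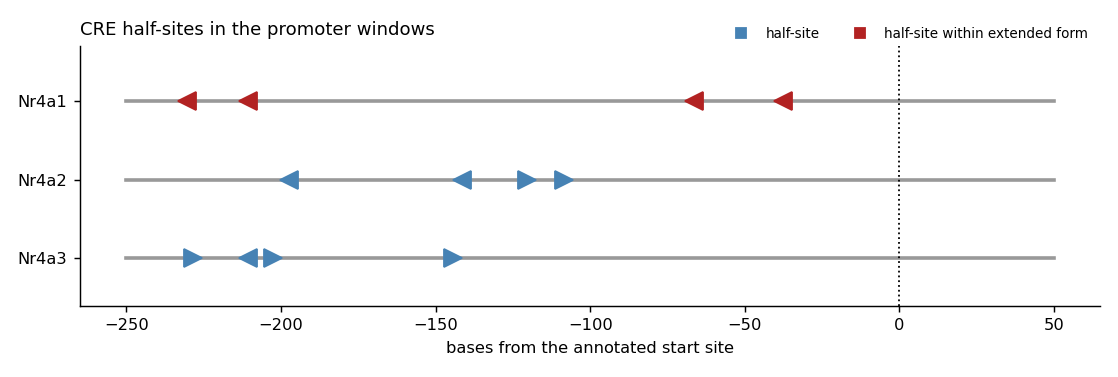
Positions of CRE half-sites in the 300-base promoter windows of *Nr4a1*, *Nr4a2* and *Nr4a3*, in bases from the annotated start site (dotted line). Arrowheads to the right mark TGACG on the strand of the gene and those to the left its reverse, and red marks half-sites within the longer form, which are the 4 of *Nr4a1*.

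Windows of *Egr2*, *Egr4*, *Nab1* and *Nab2* were searched in the same way, with 5 windows for *Egr2*, some of which overlap and share their matches. *Egr4* and some windows of *Egr2* hold 2 half-sites, *Nab1* holds 1 and *Nab2* 0, where 20.8% of all windows hold at least 1 and 5.01% hold 2 or more. The half-site of *Nab1*, which was not called at 24 h, also lies within the longer form TGCGTCA. *Egr2*, *Egr4* and *Nab2* do not have the longer form in their windows. The full palindrome TGACGTCA (1.79% of windows), which contains the half-site on both strands, was found in none of the windows of the 7 genes. The EGR binding site GCGTGGGCG, or CGCCCACGC on the other strand, was present in *Nab1* at 2 places and in 0.612% of windows. The site for NR4A proteins as single molecules, AAAGGTCA or TGACCTTT, was in none of these windows and in 1.51% of all. A CArG box, the site of serum response factor, was present once in 4 of the windows of *Egr2* and in 1.63% of all.

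*Nr4a2*, which codes for the receptor NURR1, known to act on osteoblast genes such as osteopontin, was read by 6 probe sets and none of them passed. The brightest, 1455034_at, read 8.00, 8.30 and 7.57 in control cells, 8.06, 8.41 and 7.81 at 6 h and 7.69, 8.43 and 7.81 at 24 h. At 6 h it was higher in each experiment, by a mean of 0.13 (adjusted p = 0.959), and at 24 h it was lower in experiment 1 and higher in the other two. The log2 fold changes of the 6 probe sets ran from -0.07 to 0.09 at 24 h and from -0.13 to 0.13 at 6 h, and their 95% confidence intervals at 24 h lay within -0.23 and 0.30. The log2 fold change seen for *Nr4a1* lies outside the interval of each *Nr4a2* probe set. That holds only for what these probe sets read, as probe sets of one gene can differ. Most of them also have equal control and 24 h values in experiment 2 or 3, and the effect of this on the intervals was not tested.

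*Nr4a3*, the gene of the receptor NOR1, had 3 probe sets that did not move alike. In control cells 1438796_at read 5.30, 5.14 and 5.33, at 6 h 5.27, 5.27 and 5.33 and at 24 h 5.49, 6.08 and 5.38. The 24 h values were all above the others, yet the rise was 0.19, 0.95 and 0.05, so that experiment 2 alone made most of the mean of 0.40 (SE 0.17, adjusted p = 0.388). The brighter 1421080_at had a difference of -0.08 at 24 h (adjusted p = 0.688) and the dim 1421079_at one of -0.03 (adjusted p = 0.951), with confidence intervals that reach from -0.33 to 0.28.

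*Nab2* showed small differences in one direction. It read 8.74, 9.16 and 8.63 in control cells, 8.80, 9.16 and 8.69 at 6 h and 8.98, 9.22 and 8.79 at 24 h. Within each experiment the 24 h value was the highest, by 0.24, 0.06 and 0.16 over the control, and the groups overlapped. The mean of 0.15 (SE 0.04, 95% confidence interval 0.06 to 0.24, adjusted p = 0.114) did not pass the test.

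*Nab1* went the other way on its brighter probe sets. Its 1417624_at read 10.64, 10.88 and 10.28 in control cells and 10.45, 10.71 and 10.20 at 24 h, lower in 3 of 3 experiments, with a mean of -0.14 (SE 0.04, adjusted p = 0.166). Its 1448781_at was also lower in each experiment, with a mean of -0.11 (SE 0.04, adjusted p = 0.303). These were the 2 probe sets of the 20 that were lower in every experiment. The dim 1438819_at had a difference of 0.09 (adjusted p = 0.658). At 6 h the *Nab1* probe sets lay between -0.05 and 0.01 from the control and *Nab2* at 0.04, none of which passed.

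Many values of experiments 2 and 3 are equal to the last digit between arrays, which touches these genes. The 24 h value equalled the control value for 6 of the 20 probe sets in experiment 2 and for 4 in experiment 3, but for 0 in experiment 1. Of all probe sets 48.4%, 31.9% and 1.26% had equal values in experiments 2, 3 and 1. *Egr4* and 5 probe sets of *Nr4a2* are among those equal in experiment 2 or 3, whereas *Egr1*, *Nr4a1*, *Nab2* and both probe sets of *Egr3* are not. The part of this coarseness in the spread was not tested.

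Regulators that act before the immediate early genes were measured as 19 genes on the probe set of highest mean signal. Of these 3 rose at 24 h and 0 fell, where 2.57% of all named genes rose and 1.57% fell, and the median over the 19 was 0.07, beside 0.00 over all genes. *Srf*, the gene of serum response factor, which drives *Egr1* and *Fos* through CArG boxes, rose by 0.61 (SE 0.06, adjusted p = 0.00525), and both of its probe sets passed. *Mef2a*, *Mef2c* and *Mef2d* code for muscle enhancer factors, a family of which members bind the *Nr4a1* promoter in lymphocytes. *Mef2a* and *Mef2c* rose by 0.50 (SE 0.02, adjusted p = 0.000238) and 0.34 (SE 0.04, adjusted p = 0.0089), on 4 of 6 and 4 of 5 probe sets. *Mef2d*, named after its value was seen, had a difference of 0.17 (SE 0.05, adjusted p = 0.161) and passed on 0 of 3 probe sets. None of the 19 genes passed at 6 h.

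Among 30 other immediate early genes, 6 rose and 3 fell at 24 h, beside 2.57% and 1.57% of all named genes, with a median of -0.04. *Myc*, the growth regulator, rose by 0.60 (SE 0.04, adjusted p = 0.000731) and *Ccn2*, which codes for a matrix protein also called CTGF, by 0.37 (SE 0.03, adjusted p = 0.0027). *Btg2*, an inhibitor of proliferation, rose by 0.31 (SE 0.03, adjusted p = 0.00594), and *Gadd45b*, a stress-inducible gene, fell by 0.33 (SE 0.03, adjusted p = 0.0021). *Myc* and *Ccn2* have 1 probe set each, whereas *Btg2* passed on 1 of 2 and *Gadd45b* on 1 of 3. The other calls, named after their values were seen, were *Plk2*, *Ccn1* and *Fosl2* as higher by 0.17 to 0.22 and *Jun* and *Dusp6* as lower, both with a difference of -0.20. Of these *Plk2*, *Fosl2* and *Jun* passed on 1 of 2 probe sets each, *Ccn1* on 2 of 4 and *Dusp6* on its only one. At 6 h no gene of this list passed, and its differences ran from -0.09 to 0.10.

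The partners of the factors had no calls at 24 h. Of all named genes 2.57% rose and 1.57% fell, and at such shares lists this short often hold no call. Of 15 genes for components of the NuRD repressor, which NAB proteins recruit, and other partners of EGR and NAB, none passed. Their differences ran from -0.13 to 0.18, with a median of 0.05. *Rbbp7* and *Rbbp4*, histone-binding subunits, had differences of 0.00 and 0.01. Of 7 genes for retinoid X receptors and coregulators of NR4A proteins none passed either, with *Trim28* at -0.01 and *Ncoa2* at 0.00.

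Known target genes were counted against the same shares of all named genes, 2.57% higher and 1.57% lower. Of 13 EGR targets, 1 rose at 24 h, *Cd44*, a hyaluronan receptor, by 0.16 (SE 0.03, adjusted p = 0.0321) on 1 of its 4 probe sets, and 0 fell, with a median of 0.02. These counts rest on the probe set of highest mean signal per gene. There *Fn1*, named after its values were seen, had a difference of -0.07 (adjusted p = 0.247), while the other of its 2 probe sets passed at 24 h. Of 12 NR4A targets, 2 rose and 0 fell, with a median of 0.05. These were *Eno3*, a muscle enolase, by 0.62 (SE 0.05, adjusted p = 0.00186) and *Lpin1*, a regulator of lipid metabolism, by 0.19 (SE 0.04, adjusted p = 0.044). *Eno3* has 1 probe set, and *Lpin1* passed on 1 of 2. None of the 11 reference genes passed, and *Actb* had a difference of -0.02 (SE 0.02, adjusted p = 0.701).

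**Figure D4:**
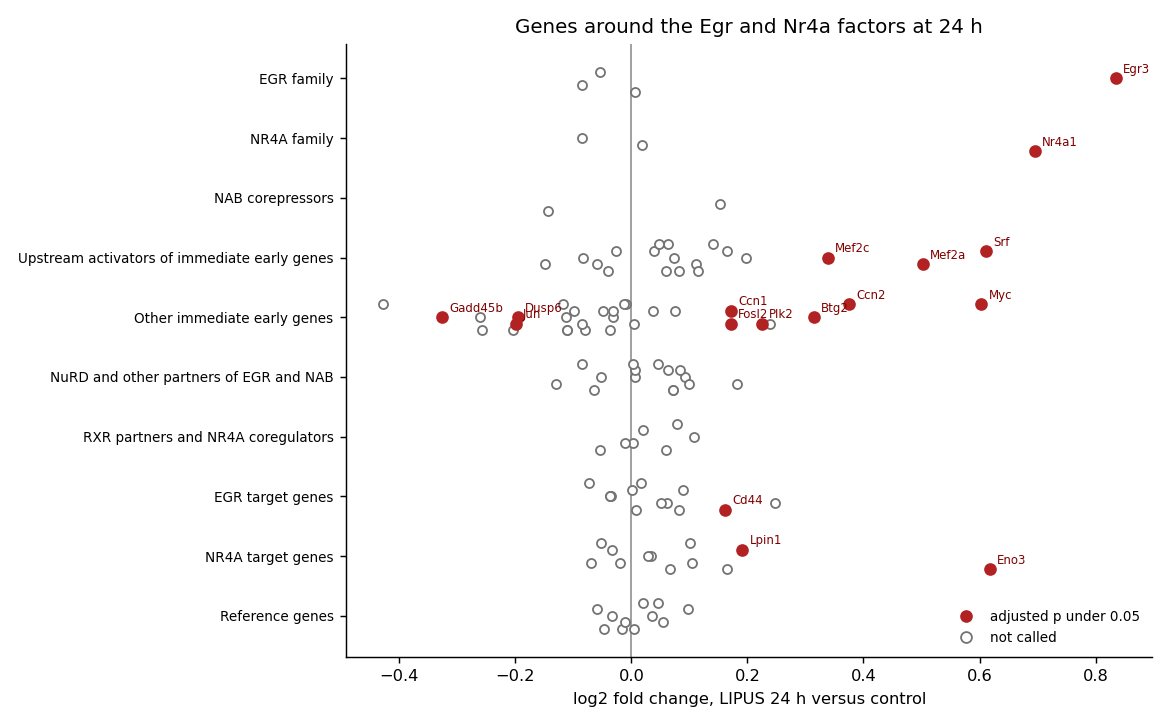
Log2 fold change at 24 h against the control for each gene of the lists around the EGR and NR4A factors, on 1 probe set per gene, with the lists in rows. Red points have an adjusted p under 0.05 and carry their symbols, and *Egr3* (0.83), *Nr4a1* (0.70), *Eno3* (0.62), *Srf* (0.61) and *Myc* (0.60) lie farthest to the right.

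The genes whose levels ran closest to *Egr3* and *Nr4a1* were looked up by Pearson correlation of deviations from the mean of each experiment, over 9 arrays and 11474 genes, as a description only. For *Egr3* these were *Abi3bp* (0.999), *Mtpap* (0.997), *Itga8* (0.995), *Omd* (0.994) and *Plxdc2* (0.994), with log2 fold changes at 24 h of 1.23, 0.13, 0.39, 0.84 and 0.34. For *Nr4a1* they were *Dkk2* (0.998), *Ube2d-ps* (0.997), *Nr1d2* (0.996), *Abat* (0.996) and *Klf9* (0.996), with log2 fold changes of 0.64, 0.19, 0.56, 0.60 and 0.21. The correlation of *Egr3* with *Nr4a1* was 0.977, which placed *Nr4a1* at rank 65 for *Egr3* and *Egr3* at rank 88 for *Nr4a1*. All these points share the same 9 arrays and one rise at 24 h.

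The label of the cells was set against marker genes. Of 9 measured osteoblast lineage markers none passed at 24 h, 8 lay above the median signal and the mean log2 signal of the list was 8.52 to 8.94 in control, 8.56 to 8.93 at 6 h and 8.67 to 9.03 at 24 h. *Col1a1*, *Col1a2* and *Postn* lay above the 99th percentile of all probe sets, *Sp7* at the 68.9th and *Ibsp*, a gene of late osteoblasts, at the 23.6th. For markers of other cells the mean log2 signal per array was 4.70 to 5.04 for 8 neuronal, 4.66 to 4.88 for 6 muscle, 3.93 to 4.27 for 6 leukocyte and 3.50 to 3.88 for 5 endothelial markers, and 0 of the neuronal, muscle and endothelial ones passed at 24 h. Above the median signal lay 4 of the 8 neuronal, 3 of the 6 muscle, 2 of the 6 leukocyte, 1 of the 5 endothelial and 5 of the 7 keratinocyte markers. The leukocyte list had 1 call, *Lyz2* (0.49), which lay at the 66.6th percentile, with *Ptprc* at the 12.5th and *Cd3e* at the 53.0th. Of the keratinocyte markers *Trp63* rose by 0.44 and *Krt14* and *Cdh1* fell by 0.98 and 0.75, and the mean of the list was 6.19 to 6.51 in control, 6.15 to 6.45 at 6 h and 5.94 to 6.31 at 24 h. *Krt14* lay at the 89.1st percentile. The marker genes were singled out after their values were seen. The part of such markers in the levels of *Egr3* and *Nr4a1* was not tested.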

How the data were processed

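Total RNA of 9 cultures was hybridised by the authors to Affymetrix whole-genome mouse arrays, 3 per group. The values used are log2 signals that the authors made with RMA before they were deposited. The version, the settings and whether all arrays were processed together are not given in the sources used here. Of 45101 probe sets, 64 controls were dropped. Symbols were read from the platform annotation, updated through gene identifiers, with 1 symbol for 34945 probe sets, several for 932 and none for 9160.

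Groups and experiment numbers were taken from the sample titles. Arrays of the same number deviated together from their group means (r of 0.701 to 0.933), other arrays did not (r of at most 0.00916), so the number entered as a block. Taking off group means itself lowers r between different numbers. On the signals as such, r was at least 0.9966 for the same number and at most 0.9939 for others. The part of values equal between arrays in this was not tested. All 9 arrays were fitted with limma 3.58.1 in R 4.3.3 (lmFit, eBayes with an intensity trend, 4 residual and 3.00 prior degrees of freedom) on 45037 probe sets, with Benjamini-Hochberg adjustment of p-values within each of the 3 comparisons and a threshold of 0.05. Confidence intervals are unadjusted. The code was tested on simulated data. Precision is limited by 3 arrays per group.

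The members, lists and rules were chosen with earlier results of these data known. Every member probe set was reported, from each other list up to 4 called genes by size, or else up to 2 of the highest mean, and 5 genes closest to *Egr3* and *Nr4a1*. Listed genes the annotation does not name, the real-time PCR of the study and promoters of *Egr1* and *Egr3* were not analysed here. Promoters came from RefSeq (GRCm38.p6), of which 7 of the 9 genes matched. Alternatives concerned the block, trend, arrays, normalization, filter, test and ratio.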

Additional observations from a re-analysis of the deposited data

Results flagged for a closer look

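The difference between both LIPUS times passed the test for 3 probe sets, by the same limma fit. For *Egr3* 1436329_at the effect at 24 h exceeded that at 6 h by 0.69 on the log2 scale (adjusted p = 0.00483, higher in 3 of 3 experiments). For *Nr4a1* it exceeded it by 0.68 (adjusted p = 0.00304, higher in 3 of 3). For *Egr1* the effect at 24 h minus that at 6 h was -0.18 (adjusted p = 0.0479, lower in 3 of 3), a call that the loss of any 1 array ends. Both effects share their control arrays, so the difference is that of 24 h and 6 h arrays alone. *Egr3* and *Nr4a1* were picked by the study on these arrays.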

How the results depend on the processing

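Of 20 probe sets, 2 were called at 24 h against control, 0 at 6 h and 3 for 24 h against 6 h. With no replicate block, with only the arrays of both groups, and by the methods' t-test or a paired test after adjustment, 0 were called at 24 h and 0 for 24 h against 6 h. Over all probe sets 1229 were called at 24 h, and 1 with no replicate block, 0 without experiment 1, 49 without experiment 2, 1439 without experiment 3 and 200 without the control array of experiment 1. At 6 h 0 were called, and 38 without experiment 3. Without adjustment the methods' t-test passed 1 of the 20 at 24 h, 1 for 24 h against 6 h and 0 at 6 h. The paired test without adjustment passed 3 at 24 h, 2 at 6 h and 2 for 24 h against 6 h. Shares over all probe sets are not given for these 2 tests, so the counts are no result about the 20. In the main limma fit 6 of the 20 and 5678 of all 45037 probe sets had an unadjusted p under 0.05 at 24 h. Leaving out arrays or experiments gave 0 to 2 calls at 24 h and 0 to 3 for 24 h against 6 h. The calls at 24 h were 0 without experiment 1 or 2 and 1 (*Nr4a1*) without the control array of experiment 1. For 24 h against 6 h they were also 0 without the 6 h array of experiment 1. The ratio rule gave 2 probe sets at a ratio of 1.3, 0 at a ratio of 2, and 1 to 2 with an experiment left out (2 without experiment 1), beside 1 at 1.5. Of all probe sets 0.0955% met the rule at 1.5, and the shares at the other ratios are not given. Without the trend, after quantile normalization or median subtraction, above the median signal and with control probe sets kept, 2 were called at 24 h (*Egr3* and *Nr4a1* each time). No called value changed its direction under any setting. The cause of the calls lost without experiment 1 or 2 was not tested. Without experiment 3, which leaves as many arrays, *Egr3* (adjusted p = 0.00213) and *Nr4a1* (0.00209) were still called at 24 h.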
